A study of Mus musculus with 6 samples.

Results

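The genes described here are 10 transcription factors of the cardiovascular lineages, Gata4, Gata5, Gata6, Hand1, Hand2, Nkx2-5, Tbx18, Tbx20, Mef2c and Isl1, chosen by name from the 55487 genes of the count table of an aorta RNA-seq experiment. They were followed in aortas of 3 mice that lacked Prdm16 in smooth muscle cells and of 3 control mice. The Prdm16 iSM KO mice were homozygous for a Prdm16 allele with a floxed exon 9 (Prdm16 F/F), and the control mice were homozygous for the wild-type allele (Prdm16 W/W). All 6 mice were males on a C57BL/6 background and carried Myh11-CreERT2, a Y-linked transgene that places a tamoxifen-dependent Cre recombinase under a smooth muscle promoter. Both groups therefore received the same tamoxifen, 1 mg per mouse per day on 10 days from 8 weeks of age, followed by 2 weeks of washout and 60 more days. The adventitia was taken off under a stereoscope before RNA was made from the whole remaining aorta, so the libraries are of mixed cells. In such bulk samples fewer cells of a type and less RNA per cell cannot be told apart.

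These factors build the heart and the great arteries in the embryo. GATA zinc finger proteins, HAND basic helix-loop-helix proteins, the homeodomain protein NKX2-5, T-box proteins and the MADS-box protein MEF2C bind DNA side by side at heart muscle genes, and ISL1 marks the progenitors of the second heart field that also give rise to part of the arterial pole. Some of them stay in use in adult vessels, above all GATA6 and MEF2C in smooth muscle cells and TBX18 in mural cells. Whether the loss of Prdm16 from smooth muscle was accompanied by a change in these lineage factors is the question the comparison addresses.

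Library totals ran from 24911609 to 40460467 counts, and control 3 was the shallowest. Prdm16 itself lay between 179 and 223 CPM in the controls and between 79.8 and 113 CPM in the iSM KO aortas (log2 fold change -1.03, FDR = 0.00265 by edgeR), where CPM expresses a gene's count relative to the TMM-scaled library total. The summed level of 6 smooth muscle markers was 22180 to 27150 CPM in the controls and 23710 to 26090 CPM in the iSM KO aortas, Acta2 being the highest of them, and 0 of these 6 genes passed an FDR of 0.05 by edgeR, DESeq2 or limma-voom or an unadjusted p of 0.05 by edgeR.

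Per kilobase of exon, which allows levels to be compared between genes, the 10 factors spanned a wide range in the control aortas. Tbx18 was the highest with 13.7 ± 0.25 CPM per kilobase, followed by Gata6 with 12.8 ± 0.76 and Mef2c with 8.55 ± 0.67 (SD, n = 3). Hand2 stood at 3.86 ± 1.16, Tbx20 at 1.43 ± 0.38 and Isl1 at 0.716 ± 0.074 CPM per kilobase. Gata4 at 0.121 ± 0.051, Gata5 at 0.0439 ± 0.040 and Nkx2-5 at 0.0356 ± 0.015 CPM per kilobase were the lowest of those with counts, and Hand1 had a count of 0 in every control library. Among the 16565 genes with enough counts to be tested, the control levels of Tbx18, Gata6 and Mef2c fell at percentiles 87.7, 87.0 and 80.0, whereas those of Isl1 and Gata4 fell at 24.1 and 2.84. Neighbours in this order whose control ranges overlapped were Tbx18 and Gata6, Gata4 and Gata5, and Gata5 and Nkx2-5. In the iSM KO aortas the order began with Gata6 at 15.1 ± 0.60 and Tbx18 at 13.1 ± 0.71 CPM per kilobase (SD, n = 3), whose ranges did not overlap there. Isl1 (0.468) and Gata4 (0.345 CPM per kilobase) overlapped in the iSM KO group but not in the controls.

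**Figure D1:**
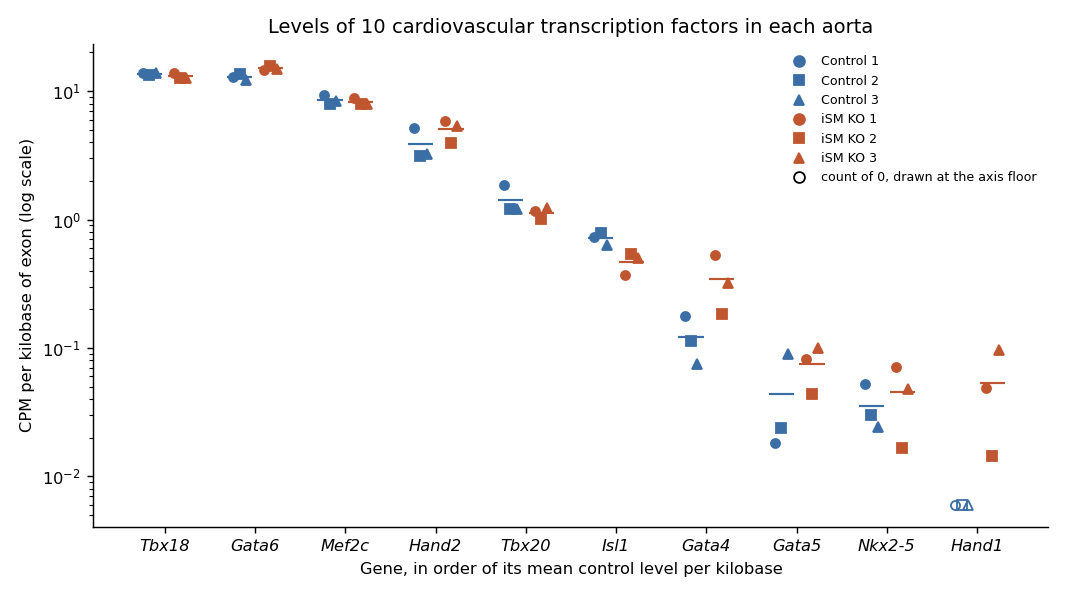
Level of each of the 10 transcription factors in each aorta, in CPM per kilobase of exon on a log axis, with the genes in the order of their mean control level. Filled symbols are single mice, horizontal bars are group means, and open symbols at the floor of the axis mark the count of 0 of Hand1 in the 3 controls; Tbx18, Gata6 and Mef2c lie at about the same height in both groups, and Gata4 lies higher in the 3 iSM KO mice.

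Of the 10 factors, 7 passed the filter on low counts (a count over 10 in every library of at least 1 group) and 3, Gata5, Hand1 and Nkx2-5, did not. By edgeR's quasi-likelihood test, 0 of the 7 tested factors passed an FDR of 0.05, against 7.56% of all tested genes. An unadjusted p under 0.05 was reached by 3 of 7, Gata4, Gata6 and Isl1, against 22.1% of all tested genes. The same 3 factors were those whose groups did not overlap (27.9% of all tested genes), 2 of them higher in the iSM KO aortas (15.0%) and 1 lower (13.0%). DESeq2 called 1 factor, Gata4, where it called 10.3% of all genes, and limma-voom called 0. Of the 7 log2 fold changes 3 were above and 4 below 0, with a median of -0.05, beside a median of -0.01 over all tested genes.

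**Figure D2:**
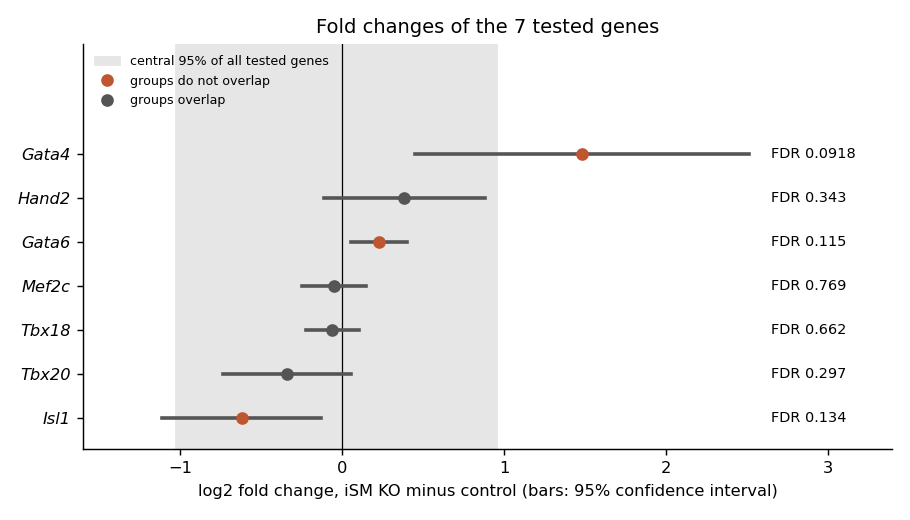
Log2 fold change (iSM KO minus control) of the 7 tested factors with 95% confidence intervals and the FDR from edgeR's quasi-likelihood test. Coloured points have groups that do not overlap, and the grey band holds the central 95% of all tested genes (-1.02 to 0.96); Gata4 at 1.48 is the only point outside it.

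The members of the GATA family considered here were abundant in the case of Gata6 and scarce in the case of Gata4 and Gata5. Gata4 (ENSMUSG00000021944, minus strand of chromosome 14 of GRCm38, 63198922 to 63271692), which encodes a zinc finger factor required for heart muscle formation, had 23, 17 and 7 counts in controls 1 to 3 and 84, 25 and 46 counts in iSM KO mice 1 to 3. In CPM these were 0.687, 0.442 and 0.294 in the controls and 2.06, 0.716 and 1.26 in the iSM KO mice. Every iSM KO library was thus above every control library, but iSM KO 2 exceeded control 1 by less than the counting error, with 95% Poisson intervals of 0.464 to 1.06 and 0.435 to 1.03 CPM (counting error only). The log2 fold change was 1.48 (standard error 0.46, 95% confidence interval 0.45 to 2.51), which is 2.79-fold, with an unadjusted p of 0.0101 and an FDR of 0.0918 by edgeR. On which side of 0.05 the FDR fell depended on the tool and on the filter. DESeq2 gave 0.0394 with a log2 fold change of 1.49, edgeR without the filter on low counts gave 0.0312, and limma-voom gave 0.128. With each library left out in turn the log2 fold change stayed above 0, from 1.03 without iSM KO 1 to 1.83 without control 1, and the FDR by edgeR stayed between 0.0708 and 0.297. Gata4 was at the 2.84th percentile of control levels, so that these differences concern a gene with few transcripts in either group.

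**Figure D3:**
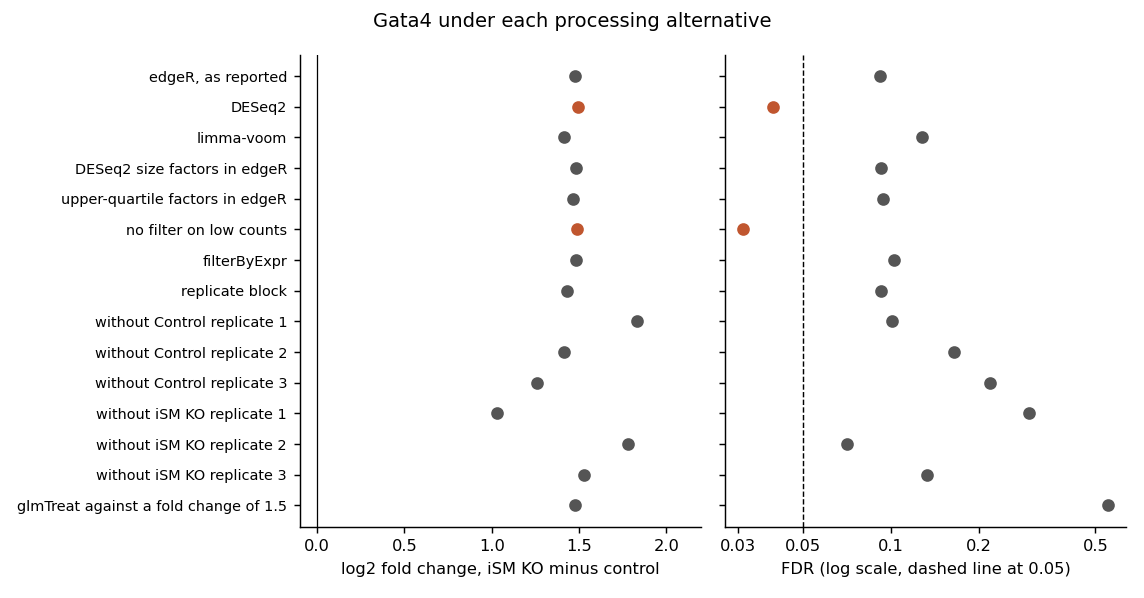
Log2 fold change (left) and FDR on a log axis (right) of Gata4 under the reported edgeR test and under each other tool, scaling, filter and choice of libraries. The fold change lies between 1.03 and 1.83 throughout, and the FDR is left of the dashed line at 0.05 in the DESeq2 fit (0.0394) and in the unfiltered edgeR fit (0.0312).

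Gata6 (ENSMUSG00000005836, plus strand of chromosome 18, 11052064 to 11085635), which is the GATA factor best known for keeping smooth muscle cells differentiated, was at 83.2, 88.7 and 78.8 CPM in the controls and at 94.6, 102 and 97.3 CPM in the iSM KO aortas. The lowest iSM KO library was above the highest control. The difference was small, from a mean of 83.5 ± 4.96 to 98.0 ± 3.90 CPM (SD, n = 3). On the log2 scale it was 0.23 (standard error 0.08, 95% confidence interval 0.06 to 0.40), with an FDR of 0.115 by edgeR. Summed with 1010001N08Rik, a non-coding gene on the opposite strand that shares 504 bp with it, Gata6 had a log2 fold change of 0.24 (FDR = 0.1001 by edgeR). Gata5 (ENSMUSG00000015627, minus strand of chromosome 2, 180325133 to 180334699), a factor of endocardial and epicardial cells, had 2, 3 and 7 counts in the controls and 11, 5 and 12 in the iSM KO mice, and these groups overlapped. The ratio of its pooled CPM was 1.99, with an interval of 0.981 to 4.30 that covers counting error only. Without the filter Gata5 had an edgeR FDR of 0.676.

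Set against each other per length, Gata6 made up nearly all of the Gata4, Gata5 and Gata6 signal, 98.7% ± 0.26 in the controls and 97.3% ± 1.30 in the iSM KO aortas (SD, n = 3). Gata4 held 1.36%, 0.823% and 0.613% of it in controls 1 to 3 and 3.49%, 1.15% and 2.10% in iSM KO 1 to 3. Control 1 exceeded iSM KO 2, so the groups overlapped in this share. The mean share of Gata4 was 1.31 percentage points higher in the iSM KO group (exact permutation test over samples, two-sided, p = 0.2, where 3 against 3 libraries cannot give a p below 0.1). Across Gata1 to Gata6, Gata6 held 73.1% ± 4.22 in the controls and 81.7% ± 5.61 in the iSM KO aortas, and Gata2, a GATA factor of blood and endothelial cells named after its values were seen, held 17.8% ± 2.98 and 10.97% ± 5.50 (SD, n = 3, exact permutation p = 0.2 for each).

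**Figure D4:**
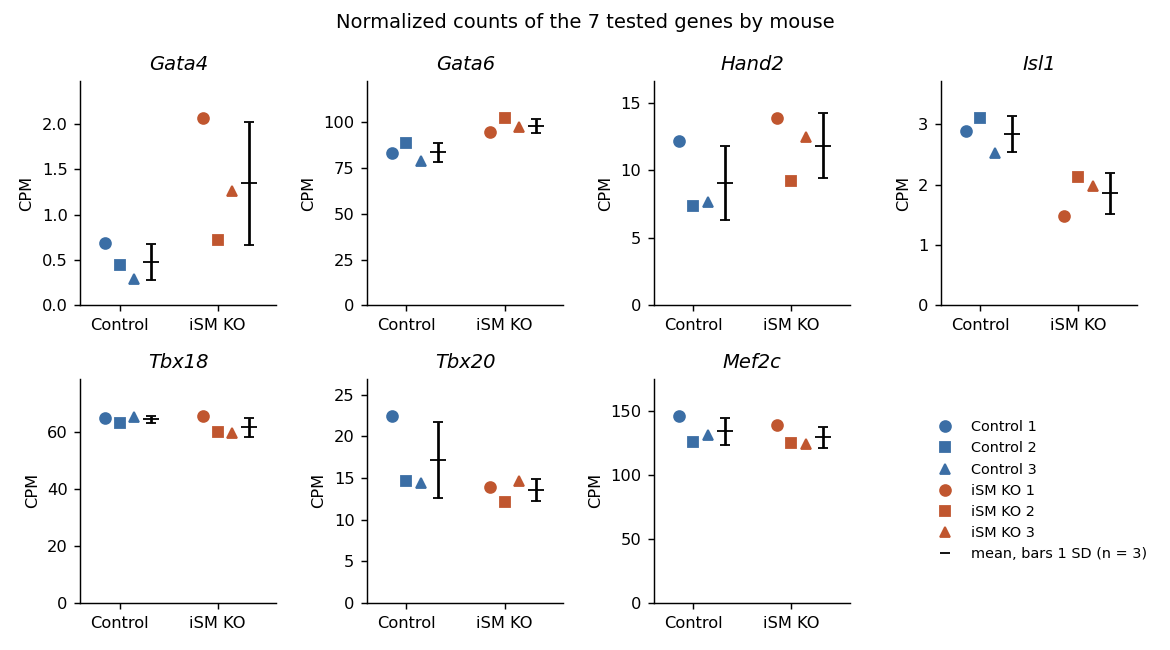
Normalized counts (CPM, linear axes from 0) of the 7 tested factors in each mouse, with the mean and bars of 1 SD beside each group (n = 3). The groups are apart for Gata4, Gata6 and Isl1 and overlap for Hand2, Tbx18, Tbx20 and Mef2c.

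Of the HAND factors, Hand2 had enough counts to be tested and Hand1 had not. Hand2 (ENSMUSG00000038193, plus strand of chromosome 8, 57320983 to 57324633), which acts in the right ventricle, the neural crest and sympathetic neurons, was at 12.2, 7.34 and 7.67 CPM in the controls and at 13.9, 9.20 and 12.5 CPM in the iSM KO mice. Control 1 lay within the range of the iSM KO libraries, and the groups overlapped. The log2 fold change was 0.38 (standard error 0.22, 95% confidence interval -0.11 to 0.88, FDR = 0.343 by edgeR), and leaving out single libraries moved it to between 0.25 without control 2 and 0.66 without control 1. The locus also holds Hand2os1, a non-coding gene on the opposite strand that shares 3251 bp with the Hand2 gene body, and whether the counting used strand is not given in the sources used here. Hand2os1 was at 4.78 ± 1.83 CPM in the controls and 5.34 ± 0.26 CPM in the iSM KO aortas (SD, n = 3), and the sum of both genes had a log2 fold change of 0.31 (FDR = 0.428 by edgeR). Hand1 (ENSMUSG00000037335, minus strand of chromosome 11, 57828705 to 57832818), the left ventricular counterpart of Hand2, had a count of 0 in all 3 controls and 4, 1 and 7 counts in the iSM KO mice. A count of 0 over the control group allows a level of up to 0.0313 CPM (3 counts). The pooled iSM KO level of 0.107 CPM was 3.42-fold that limit. This ratio leaves out the counting error of the iSM KO counts and the spread between mice. With 1 count, iSM KO 2 stood at 0.0287 CPM, below that limit. Hand1 did not enter the reported test, and edgeR without the filter gave it an FDR of 0.161.

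Both T-box factors were within the scatter of the replicates. Tbx18 (ENSMUSG00000032419, minus strand of chromosome 9, 87702800 to 87731260), a factor of the epicardium, the sinus node and mural cells, was at 64.7, 63.1 and 65.3 CPM in the controls and at 65.5, 60.01 and 59.5 CPM in the iSM KO mice. Its log2 fold change of -0.06 (standard error 0.07, 95% confidence interval -0.22 to 0.10, FDR = 0.662 by edgeR) had the narrowest interval of the 7 tested factors. A gene on the opposite strand, D030062O11Rik, shares 1976 bp with it and was at 3.86 CPM in the controls and 3.90 CPM in the iSM KO aortas. Tbx20 (ENSMUSG00000031965, minus strand of chromosome 9, 24718138 to 24774303), which controls growth of the heart chambers, was at 22.4, 14.6 and 14.4 CPM in the controls and at 14.0, 12.1 and 14.7 CPM in the iSM KO mice. Control 1 stood above the other 5 libraries, which lay close together. The log2 fold change was -0.34 (standard error 0.18, 95% confidence interval -0.73 to 0.06, FDR = 0.297 by edgeR), and without control 1 it was -0.09.

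Isl1 was the tested homeobox factor, and Nkx2-5 was barely present. Isl1 (ENSMUSG00000042258, minus strand of chromosome 13, 116298281 to 116309689), a LIM-homeodomain factor of cardiac progenitors, motor neurons and sinus node cells, was at 2.90, 3.10 and 2.52 CPM in the controls and at 1.47, 2.12 and 1.97 CPM in the iSM KO mice. Every iSM KO library was below every control. The means were 2.84 ± 0.29 and 1.85 ± 0.34 CPM (SD, n = 3). On the log2 scale the difference was -0.62 (standard error 0.22, 95% confidence interval -1.11 to -0.13), with an unadjusted p of 0.0191 and an FDR of 0.134 by edgeR. With each library left out in turn the log2 fold change lay between -0.72 and -0.48. Nkx2-5 (ENSMUSG00000015579, minus strand of chromosome 17, 26838664 to 26845009), the homeobox factor that defines heart muscle progenitors, had 3, 2 and 1 counts in the controls and 5, 1 and 3 in the iSM KO mice. Its pooled ratio of 1.28 had an interval of 0.407 to 4.37 (counting error only) and took in no change, so that no direction was detectable at this depth.

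Mef2c (ENSMUSG00000005583, plus strand of chromosome 13, 83504034 to 83667080), a MADS-box factor shared by heart, skeletal and smooth muscle, was at 146, 126 and 131 CPM in the controls and at 139, 125 and 125 CPM in the iSM KO mice. The ranges overlapped, although control 1 lay above all iSM KO libraries and iSM KO 2 and 3 lay just below the lowest control. The log2 fold change was -0.05 (standard error 0.09, 95% confidence interval -0.25 to 0.15, FDR = 0.769 by edgeR) and changed sign, to 0.017, without control 1. Within its family and per length, Mef2c held 16.6% ± 0.86 of the signal of Mef2a to Mef2d in the controls and 16.0% ± 0.97 in the iSM KO aortas (SD, n = 3, exact permutation p = 0.6). Mef2d held the largest share, 54.4% ± 1.19 in the controls and 58.4% ± 2.91 in the iSM KO aortas (SD, n = 3, exact permutation p = 0.2). Mef2a held 28.7% ± 0.65 and 25.4% ± 1.97 (SD, n = 3). The Mef2a share was lower in all 3 iSM KO libraries than in any control, with an exact permutation p of 0.1, the smallest that this design can give.

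The stretch of 250 bases before the start of transcription was read for 7 of the 10 factors from RefSeq's promoter table (GRCm38.p6), with 3 starts for Mef2c, which gave 9 promoters. The GATA core GATAA (or TTATC on the other strand) was present in 3 of these 9 and in 22.6% of all 32851 promoters in the table. Those 3 were at Hand2, Isl1 and the second Mef2c start. The promoters of Hand2 and Isl1 are printed because each holds the core to which GATA4, GATA5 and GATA6 bind, and that of Tbx20 because it holds none, with GATAA or TTATC in capitals, 5′ to 3′ on the strand of the gene.
Hand2, plus strand, chr8:57320733-57320982: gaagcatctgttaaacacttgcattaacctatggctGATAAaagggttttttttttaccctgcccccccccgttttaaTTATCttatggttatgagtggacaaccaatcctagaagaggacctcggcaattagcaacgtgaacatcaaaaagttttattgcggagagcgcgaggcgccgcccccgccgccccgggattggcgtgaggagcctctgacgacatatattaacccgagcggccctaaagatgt
Isl1, minus strand, chr13:116309689-116309938: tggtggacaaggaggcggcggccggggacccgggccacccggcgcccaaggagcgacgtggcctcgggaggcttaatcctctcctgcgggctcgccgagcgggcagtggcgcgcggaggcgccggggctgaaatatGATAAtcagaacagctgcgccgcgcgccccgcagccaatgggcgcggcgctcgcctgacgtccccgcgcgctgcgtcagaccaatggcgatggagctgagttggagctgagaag
Tbx20, minus strand, chr9:24774304-24774553: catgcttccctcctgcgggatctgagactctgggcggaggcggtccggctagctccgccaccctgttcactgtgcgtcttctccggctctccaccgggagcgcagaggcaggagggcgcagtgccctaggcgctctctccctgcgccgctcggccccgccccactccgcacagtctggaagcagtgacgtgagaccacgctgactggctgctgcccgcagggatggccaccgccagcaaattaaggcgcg
In Hand2 the cores began 214 and 172 bases before the start, and in Isl1 the single core began 114 bases before it. In the counts given above the groups were apart for Isl1 and overlapped for Hand2 and Tbx20. The T-box letters GGTGTGA (or TCACACC) were in 0 of the 9 promoters and in 3.33% of all promoters, and the MEF2 letters TAAAAATA (or TATTTTTA) in 0 of 9 and in 2.45%. The E-box CANNTG, bound by HAND proteins with their partners, was in 7 of 9 promoters and in 66.2% of all, and the NK2 letters AAGTG (or CACTT) in 5 of 9 and in 40.7%, where CAAGTG counts for both.

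The paralogs of the 10 factors, among them Gata1 to Gata3, Twist1, the other Nkx2, Nkx3 and Tbx genes and the other Mef2 genes, gave 15 tested genes of 31 in the table. Of these 0 passed an FDR of 0.05 by edgeR, by DESeq2 or by limma-voom, against 7.56%, 10.3% and 7.51% of all tested genes. By edgeR, 3 of the 15 had an unadjusted p under 0.05, near the 22.1% of all tested genes. These 3, named after their values were seen, were Gata3 (log2 fold change -0.64, edgeR FDR = 0.159), Twist1 (-0.39, FDR = 0.0806) and Tcf21 (-1.21, FDR = 0.197). The paralogs had a median log2 fold change of -0.22, with 12 below and 3 above 0. Mef2a was the paralog with the highest CPM, 217 ± 9.77 in the controls and 192 ± 15.8 in the iSM KO aortas (SD, n = 3), with an edgeR FDR of 0.276. Nkx2-6, Nkx2-9, Tbx19 and Tbx22 had a count of 0 in all 6 libraries.

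The genes of proteins that work with these factors, co-activators, co-repressors and dimer partners, were all tested at the RNA level. Past an FDR of 0.05 by edgeR, 3 of 21 rose in the iSM KO aortas while 0 fell (4.26% and 3.30% of all tested genes). Myocd, the co-activator that drives smooth muscle genes through SRF and whose protein also binds MEF2, was at 216, 206 and 162 CPM in the controls and at 329, 296 and 290 CPM in the iSM KO mice. It rose by 0.65 on the log2 scale (standard error 0.12, FDR = 0.0109 by edgeR). The others were Hdac9 and Hdac5, of the class IIa histone deacetylases, which bind MEF2 proteins and repress their targets. Hdac4 and Hdac7 of this class did not pass. Hdac4, named after its values were seen, was at 55.0 ± 2.29 and 53.3 ± 1.30 CPM (SD, n = 3). Its log2 fold change was -0.04, with an edgeR FDR of 0.749. Hdac9 rose from 55.0 ± 2.16 to 79.3 ± 8.60 CPM (SD, n = 3), or by 0.53 on the log2 scale, with an edgeR FDR of 0.00927. Hdac5 rose from 124 ± 8.70 to 163 ± 11.2 CPM (SD, n = 3), or by 0.39 on the log2 scale, with an edgeR FDR of 0.0284. With each library left out in turn, Hdac9 kept an FDR under 0.05 in all 6 cases and Myocd in 4, losing it without iSM KO 1 or 2, whereas Hdac5 kept it in 1, that without control 2. The log2 fold changes of Myocd and Hdac5 stayed between 0.53 and 0.73 and between 0.35 and 0.45 in these cases. The list had a median log2 fold change of 0.19. DESeq2 also called Hdac7, Mrtfa and Srf, which were named after their values were seen and had an edgeR FDR of 0.0533, 0.0543 and 0.0676.

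Of 20 other transcription factors of heart development 9 were tested, and 2 rose while 0 fell (4.26% and 3.30% of all tested genes). Foxf1, a forkhead factor of the splanchnic mesoderm, was at 16.1, 16.8 and 19.5 CPM in the controls and at 25.6, 24.6 and 26.6 CPM in the iSM KO mice, a log2 fold change of 0.56 with an edgeR FDR of 0.0107. With 1 library left out Foxf1 kept its call in 6 of 6 cases. The median over this list was 0.14.

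Heart muscle genes at which GATA, NKX2-5, T-box and MEF2 factors are known to act gave 13 tested genes of 25. Of these 5 rose while 0 fell (4.26% and 3.30% of all tested genes). Tnnt2, cardiac troponin T, rose from 13.9 ± 3.44 to 718 ± 22.7 CPM (SD, n = 3), or by 5.69 on the log2 scale, with an edgeR FDR of 1.71e-06. Ankrd1, a sarcomeric ankyrin repeat protein, was at 5.79, 7.86 and 5.12 CPM in the controls and at 48.6, 55.1 and 39.0 CPM in the iSM KO mice, a log2 fold change of 2.91 with an edgeR FDR of 5.96e-05. Slc8a1, the sodium-calcium exchanger, had a log2 fold change of 0.72, Actn2 of the Z-disc 0.78 and Ryr2, the calcium release channel, 0.50. Their edgeR FDRs were 0.00195, 0.0154 and 0.0459. Tnnt2, Ankrd1 and Slc8a1 kept their calls whichever library was left out, whereas Actn2 lost it without iSM KO 1 or 2, and Ryr2 kept it only without control 2 or iSM KO 3. Their log2 fold changes stayed between 0.70 and 0.88 and between 0.40 and 0.61. DESeq2 also called Xirp1, named after its values were seen (edgeR FDR = 0.0632). Past the FDR, Tnnt2 and Ankrd1 changed by more than 1 on the log2 scale, as did 2.78% of all tested genes. The list had a median log2 fold change of 0.46, with 8 genes above and 5 below 0. Members of it did not move as a unit. Actc1 and Tnnc1 stood at -1.32 and -1.18 on the log2 scale, with every iSM KO library below every control in CPM (13.0% of all tested genes). Both had few counts. Actc1 had 61, 49 and 17 in the controls and 29, 20 and 9 in the iSM KO mice, and Tnnc1 11, 17 and 11 and 6, 3 and 11. Myh6 and Tnni3, which encode contractile proteins of heart muscle, stood at -0.88 and -0.24, with groups that overlapped. None of these passed the threshold (edgeR FDR of 0.127, 0.189, 0.369 and 0.789, in this order). Bmp10 and Kcne1 had a count of 0 in all libraries.

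**Figure D5:**
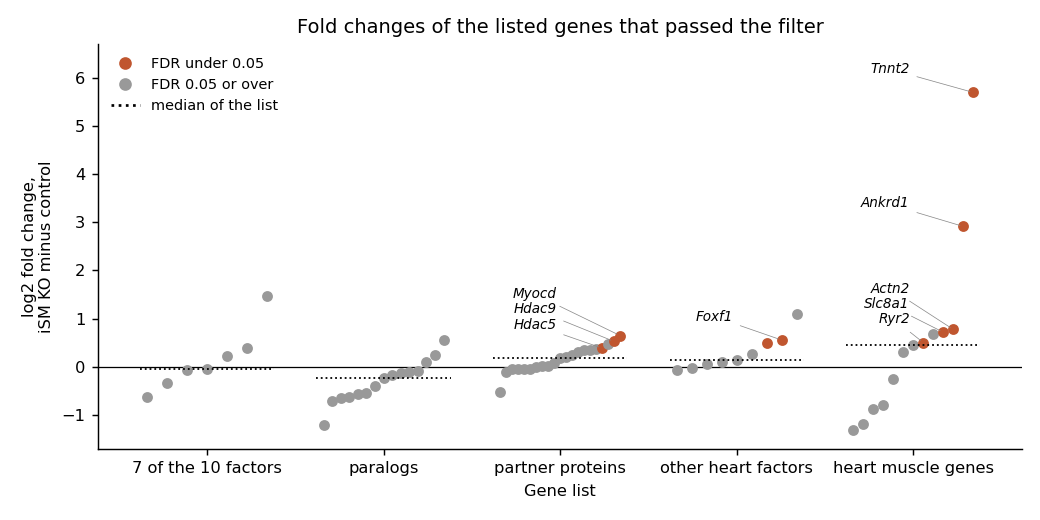
Log2 fold changes (iSM KO minus control) of the tested genes of 5 lists, each point a gene, with coloured points past an FDR of 0.05 by edgeR and dotted lines at the median of each list. Of the tested transcription factors and their paralogs 0 are coloured, while 3 partner genes, 2 other heart factors and 5 heart muscle genes are, all of them above 0.

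Markers of other cell types that can express these factors were summed in each library. Heart muscle, a site of Gata4, Nkx2-5, Tbx20 and Hand1 expression, had markers that summed to 125, 156 and 141 CPM in the controls and to 203, 222 and 168 CPM in the iSM KO aortas. Of the 5 that were tested 2 rose (4.26% of all tested genes), Actn2 and Ryr2, which are also in the list of heart muscle genes. Ryr2 was the highest and made up most of the sum in every library, at 112, 142 and 128 CPM in the controls and 183, 206 and 152 CPM in the iSM KO mice. Myh6 had 60, 28 and 10 counts in the controls and 15, 16 and 29 in the iSM KO mice. Tnni3 had 29, 10 and 16 counts and 24, 17 and 15 counts, and Ttn 209, 297 and 167 and 419, 265 and 291. Myl2 had at most 8 counts, Myl7 at most 2 and Nppa at most 18 counts in a library, and Myl7 had a count of 0 in all 3 controls. Mesothelial markers, relevant to Gata4, Gata5 and Tbx18, summed to 0.418 to 1.25 CPM in the controls and to 0.0491, 0.229 and 2.79 CPM in iSM KO 1 to 3, and Msln had 5, 6 and 5 counts in the controls and 0, 0 and 13 in the iSM KO mice. Fibroblast markers summed to 1069 to 1309 CPM in the controls and to 789 to 812 CPM in the iSM KO aortas, without overlap. Most of this sum was Col1a1, at 932 ± 165 and 660 ± 28.1 CPM (SD, n = 3). Singly, Col1a1 and Pi16 were lower without overlap, as were 13.0% of all tested genes, whereas Pdgfra, Dcn, Lum and Dpt overlapped. Of 6 tested, 0 passed an FDR of 0.05 by edgeR, 2 by DESeq2 and 0 by limma-voom. All 6 had an unadjusted p under 0.05 by edgeR, against 22.1% of all tested genes. Adipocyte markers summed to 24.8 to 109 CPM in the controls and to 8.08 to 12.6 CPM in the iSM KO aortas. Of 5 tested, 4 fell by edgeR (3.30% of all tested genes), 4 by DESeq2 and 1, Fabp4, by limma-voom. Without iSM KO 1 or without iSM KO 2 the edgeR call was kept by 1 of them, Fabp4. Sympathetic markers, relevant to Hand2, Gata2, Gata3 and Isl1, summed to 2.39 to 5.40 CPM and to 1.64 to 4.19 CPM with Dbh at 0 in all libraries, and Schwann cell markers to 1.93 to 3.10 CPM and to 1.89 to 3.37 CPM. Endothelial markers, 430 to 906 CPM in the controls and 229 to 691 CPM in the iSM KO aortas, overlapped between the groups. So did macrophage markers, at 21.4 to 24.8 CPM and 8.17 to 23.2 CPM. All 6 endothelial and all 5 macrophage log2 fold changes were below 0 (medians -0.66 and -0.60), and 0 passed an FDR of 0.05 by edgeR. Unadjusted p was under 0.05 by edgeR for 0 and 2 of them (22.1% of all tested genes). Lyz2 was below every control in each iSM KO library (13.0% of all tested genes), with an FDR of 0.146 by edgeR and 0.0352 by DESeq2. Skeletal muscle markers summed to 3.15 to 4.27 CPM in the controls and to 2.32 to 2.90 CPM in the iSM KO aortas, ranges that did not overlap, with 0 of 2 tested past an FDR of 0.05 or an unadjusted p of 0.05 by edgeR and 0 past the FDR by DESeq2 or limma-voom. Lymphocyte markers summed to 0.119 to 0.546 CPM and to 0.246 to 0.401 CPM. The part of these markers in the values of Gata4, Gata6 and Isl1 was not tested.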

How the data were processed

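Aortic RNA of 3 control and 3 iSM KO male mice was sequenced by the authors as paired-end libraries after depletion of ribosomal RNA (RiboErase). Reads were mapped and quantified by the authors with DRAGEN against mm10, and the deposited table gives an estimated count for each gene and library, unnormalized. Per the submitters' processing notes, bcl2fastq and DRAGEN were used, and their versions, the strand setting of the counting and the handling of reads that match several genes are not given in the sources used here. Counts were not whole in 10.9% to 12.2% of values and were rounded. The study's methods give 3 mice per group, and each numbered library was taken as 1 mouse. Chi-square comparisons found no pair of libraries within sampling noise.

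Of 55487 genes, 16565 with a count over 10 in every library of at least 1 group were tested, the study's filter. Rn7s1, Rn7s2 and Rn7sk took 22.8% to 28.1% of counts. TMM factors and edgeR 4.0.16 (glmQLFit, glmQLFTest, 6 libraries, no covariates, R 4.3.3) were used with Benjamini-Hochberg adjustment (FDR) over all tested genes, and the script was tested on simulated data. The study used DESeq2 and its threshold of a log2 fold change over 1. Levels were divided by the union of annotated exons (GENCODE release M21, GRCm38). Shares were compared by exact permutation tests (SciPy 1.17.1). Intervals of counts are 95% Poisson intervals.

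Alternatives were DESeq2 1.42.0, limma-voom (limma 3.58.1), DESeq2's and upper-quartile factors in edgeR, no filter, filterByExpr, leaving out each library in turn, a block for replicate number, the study's fold change threshold and, for shares, no division by length. Sums with opposite-strand genes and glmTreat against a fold change of 1.5 were chosen after seeing the data. The 10 genes and all gene lists were chosen with earlier results of these data known. Named are the 10 genes, Prdm16, genes of a list past an FDR of 0.05, otherwise its highest gene, and markers that are the highest of their list or at 0. Other genes, among them Actc1, Tnnc1, Myh6, Tnni3, Ttn, Msln and Lyz2, are outside this rule and were named after their values were seen. Genes with the most similar pattern were to be named only for factors past an FDR of 0.05, of which there were 0. Of 32 paralogs listed, 31 were matched by symbol. A further result is not reported here.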

Additional observations from a re-analysis of the deposited data

How the results depend on the processing

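Under the other settings tried, the 7 tested factors kept their direction and their side of the FDR threshold with 3 exceptions. These were Gata4 with DESeq2 (log2 fold change 1.49, FDR = 0.0394), Gata4 without the filter on low counts in edgeR (1.49, FDR = 0.0312) and Mef2c without control 1 (0.017). With DESeq2 and without the filter, 1 factor in place of 0 passed, where 10.3% and 5.79% of all genes did. The unfiltered fit took in 30712 genes, among them Gata5, Hand1 and Nkx2-5. The causes of the 3 exceptions were not tested. Leaving out each library in turn, the number of factors past the FDR was 0 throughout, and the log2 fold change of Gata4 ranged from 1.03 to 1.83 and that of Mef2c from -0.11 to 0.017. The 10 paralog, partner, other heart factor and heart muscle genes past the FDR became 5 to 13 with a library left out (6 without iSM KO 1 and 5 without iSM KO 2), 14 with DESeq2 and 2 with edgeR's glmTreat against a fold change of 1.5, a setting chosen after seeing the data. The share of all tested genes past the FDR moved as well, from 7.56% as reported. It was 3.79% without iSM KO 1, 3.1% without iSM KO 2, 8.4% without control 2, 10.3% with DESeq2 and 1.35% with glmTreat. The difference in the share of Gata4 among Gata4, Gata5 and Gata6 stayed between 0.695 and 1.86 percentage points.

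The replicate numbers are not stated to mark shared litters or days, and deviations of same-numbered libraries correlated at -0.132, -0.046 and -0.107. With the replicate block, 775 genes in place of 1252 passed the FDR, 7 of the listed genes did, and 0 of the 10 factors did (Gata4 log2 fold change 1.43, FDR = 0.0922 by edgeR). Depth limits Gata5, Hand1 and Nkx2-5, with at most 12 counts in a library, and to a lesser degree Gata4.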
